A study of Rattus norvegicus with 8 samples.

Results

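The 8 genes described here are 7 aquaporin genes (Aqp1, Aqp2, Aqp3, Aqp4, Aqp6, Aqp7 and Aqp11) and Avpr2, which encodes the vasopressin V2 receptor. They were found by name, by a rule that uses no measured value, as the probes whose gene name or RefSeq transcript stands for one of them. All 8 were found, each with 1 probe, among 35535 genes on the array. Every one of the 8 probes passed the filter on dim signal (detection on both arrays of some group), and all 8 were tested. Aqp1, Aqp2 and Aqp4 were printed as 10 spots each, and the other 5 genes as 1 spot each.

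The samples were rat kidney allografts removed 24 h after transplantation. Kidneys of male Dark Agouti (DA; RT1a) rats were cooled in University of Wisconsin solution, stored for 25 min at 4 °C, and placed into male Lewis (LEW; RT1l) rats whose own kidneys had both been removed. Anti-IL6R grafts came from donors weighing 20 to 50% less than the recipient, and the recipients received a single intravenous injection of 500 µg of a neutralizing antibody to the interleukin-6 receptor right after surgery. Prednisolone grafts had the same weight difference, and the recipients received a single intravenous injection of the glucocorticoid prednisolone at 15 mg/kg. High-difference grafts had that weight difference and no treatment. Low-difference grafts came from donors weighing 0 to 20% less than the recipient, also without treatment. Each group had 2 arrays, which the design text calls biological replicates. All animals weighed between 120 and 250 g. Every graft was an allograft with cold storage, and no unoperated or syngeneic kidney was analysed here, so no level below stands for a normal kidney.

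Aquaporins are membrane channels that let water, and in some cases glycerol, cross cell membranes. In the collecting duct, vasopressin binds the V2 receptor on principal cells, cyclic AMP rises, protein kinase A is activated, and vesicles carrying AQP2 fuse with the apical membrane. Water that enters through AQP2 leaves across the basolateral membrane through AQP3 and AQP4. AQP1 carries most of the water reabsorbed by the proximal tubule and thin descending limb. In rats, a loss of AQP2 after renal ischaemia accompanies a failure to concentrate urine.

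The promoters of Aqp2, Avpr2 and Aqp3 are shown because these genes act in the same cell type and their levels ran together over the arrays, and that of Aqp1 as the main aquaporin of another segment. These 4 were chosen after the levels had been seen. Each runs from 250 bases before to 50 bases after the gene's start, 5′ to 3′ on the gene's strand, from RefSeq on the GRCr8 assembly, in which 7 of the 8 genes had an entry and Aqp7 did not. Capitals mark matches to the motifs described next.
Aqp2 (chr7:132590036-132590335, plus strand): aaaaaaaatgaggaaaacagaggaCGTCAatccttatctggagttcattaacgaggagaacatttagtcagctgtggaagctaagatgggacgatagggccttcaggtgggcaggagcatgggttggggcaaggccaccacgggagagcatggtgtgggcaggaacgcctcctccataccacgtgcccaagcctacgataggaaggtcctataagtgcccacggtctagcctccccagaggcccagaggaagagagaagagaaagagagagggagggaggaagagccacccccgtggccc
Avpr2 (chrX:156784889-156785188, plus strand): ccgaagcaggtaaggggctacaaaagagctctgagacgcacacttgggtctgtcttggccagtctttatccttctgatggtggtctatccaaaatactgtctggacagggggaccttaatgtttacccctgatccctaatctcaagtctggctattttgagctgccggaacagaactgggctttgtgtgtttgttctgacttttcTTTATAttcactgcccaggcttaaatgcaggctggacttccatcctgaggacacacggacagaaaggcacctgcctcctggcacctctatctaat
Aqp3 (chr5:61040634-61040933, minus strand): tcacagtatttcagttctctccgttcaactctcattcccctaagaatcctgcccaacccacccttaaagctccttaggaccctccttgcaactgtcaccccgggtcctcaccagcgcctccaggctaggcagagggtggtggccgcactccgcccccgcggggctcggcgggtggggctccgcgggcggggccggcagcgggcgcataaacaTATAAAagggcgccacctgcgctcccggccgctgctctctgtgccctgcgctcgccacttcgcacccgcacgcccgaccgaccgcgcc
Aqp1 (chr4:85812534-85812833, plus strand): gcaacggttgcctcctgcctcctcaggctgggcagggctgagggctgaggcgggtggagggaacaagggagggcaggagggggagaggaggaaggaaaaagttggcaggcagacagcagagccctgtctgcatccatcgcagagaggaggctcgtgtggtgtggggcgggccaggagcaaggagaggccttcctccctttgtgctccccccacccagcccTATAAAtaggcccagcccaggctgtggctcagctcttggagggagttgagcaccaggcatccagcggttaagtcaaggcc

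A set of 4 motifs was searched on both strands, chosen after the Aqp2 promoter had been read. The half-site of CREB, the factor that protein kinase A activates, was searched as TGACG and, on the other strand, as CGTCA. Aqp2 held 1 match, in reverse, at position -226 from the gene's start, and none of the other 6 genes held one, while 21.2% of 33469 promoters of this length did. The word TGATAA, 1 form of the core bound by GATA factors, was in none of the 7 genes' windows and in 9.03% of all. Other forms of that core were not searched. AGATAA, such a form, stands in reverse (ttatct) in the printed Aqp2 window, and its share over all promoters was not counted. The core of the tonicity-responsive element, TGGAAA, which NFAT5 binds, was found for Aqp4 and Aqp6 and in 22.7% of all. The TATA box, TATAAA, stood at position -30 of Aqp1 and -38 of Aqp3, and in reverse at -45 of Avpr2, against 14.2% of all promoters with a match anywhere in the window. The 4 searched words share no overlapping match in the printed windows. The Aqp2 and Aqp6 genes lie on chromosome 7 with only Aqp5 between them, and Aqp3 and Aqp7 are neighbours on chromosome 5. Aqp1 is on chromosome 4, Aqp11 on chromosome 1, Aqp4 on chromosome 18 and Avpr2 on chromosome X.

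Levels are log2 of the array's processed signal, with 0 set at the 75th percentile of that array. A level can be compared between arrays for 1 probe and not between probes. The kidney label was borne out by all 7 kidney markers, which were detected on both arrays of each group. In the mean, 6 of the 7 were lower in high-difference than in low-difference grafts, Umod of the thick ascending limb averaging 8.03 against 8.97. Pax8 was higher, at 1.26 and 1.89 in high-difference and 0.55 and 0.50 in low-difference grafts. Between 64.5% and 74.1% of gene spots were well above background per array, the lowest shares being on prednisolone array 2 and both high-difference arrays. The prednisolone pair stood apart, with 18.7% of genes differing by over 1 log2 unit between its arrays, against 2.46% in the anti-IL6R, 8.91% in the high-difference and 5.56% in the low-difference pair. Both treated groups lay on 1 slide and both untreated groups on another, so a treatment and the slide cannot be told apart. In whole tissue, fewer cells of a type and less RNA per cell cannot be told apart. Array numbers limit the precision of each value, and the p-values measure the spread between 2 arrays a group, pooled over all groups. Each gene thus has the same standard error (SE) in every comparison, and a wide prednisolone pair raises it in comparisons without prednisolone too. For Avpr2 that SE was 0.69, with an SD of 0.36 in high-difference, 0.32 in low-difference, 0.19 in anti-IL6R and 1.61 in prednisolone grafts.

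Aqp2, the vasopressin-regulated apical water channel of principal cells, varied most of the 8 genes. Its log2 levels were 3.23 and 3.98 in anti-IL6R grafts, 2.95 and 4.67 in prednisolone grafts, 2.63 and 0.59 in high-difference grafts, and 4.60 and 3.74 in low-difference grafts. Both high-difference arrays lay below all 6 others, and the second of them lay 4.12-fold below the first. From its lowest to its highest array the signal spanned 17.0-fold, a wider range than that of 98.4% of the genes tested. The 10 spots of Aqp2 on 1 array had an SD of 0.03 to 0.18, below the SD between the arrays of each group.

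The high-difference mean of Aqp2 was 1.61 ± 1.45 and the low-difference mean 4.17 ± 0.61 (SD, n = 2 each). The log2 difference was -2.56 ± 0.83 (SE), or 5.90-fold, with a 95% interval of -4.56 to -0.56. It did not pass limma's test after adjustment over all genes (adjusted p = 0.33), although it was among the genes with an unadjusted p under 0.05. Leaving out high-difference array 1 gave -3.58 and leaving out array 2 gave -1.54. Anti-IL6R grafts averaged 3.60 ± 0.53, which was 1.99 ± 0.83 (SE) above the high-difference grafts (adjusted p = 0.30 in limma), and 3.02 or 0.97 above without the first or the second high-difference array. Prednisolone grafts averaged 3.81 ± 1.22 and lay 2.20 ± 0.83 (SE) above them (adjusted p = 0.41 in limma). That value was 3.06 without prednisolone array 1 and 1.34 without array 2, 3.22 without high-difference array 1 and 1.18 without array 2. Low-difference grafts overlapped with both treated groups.

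**Figure D1:**
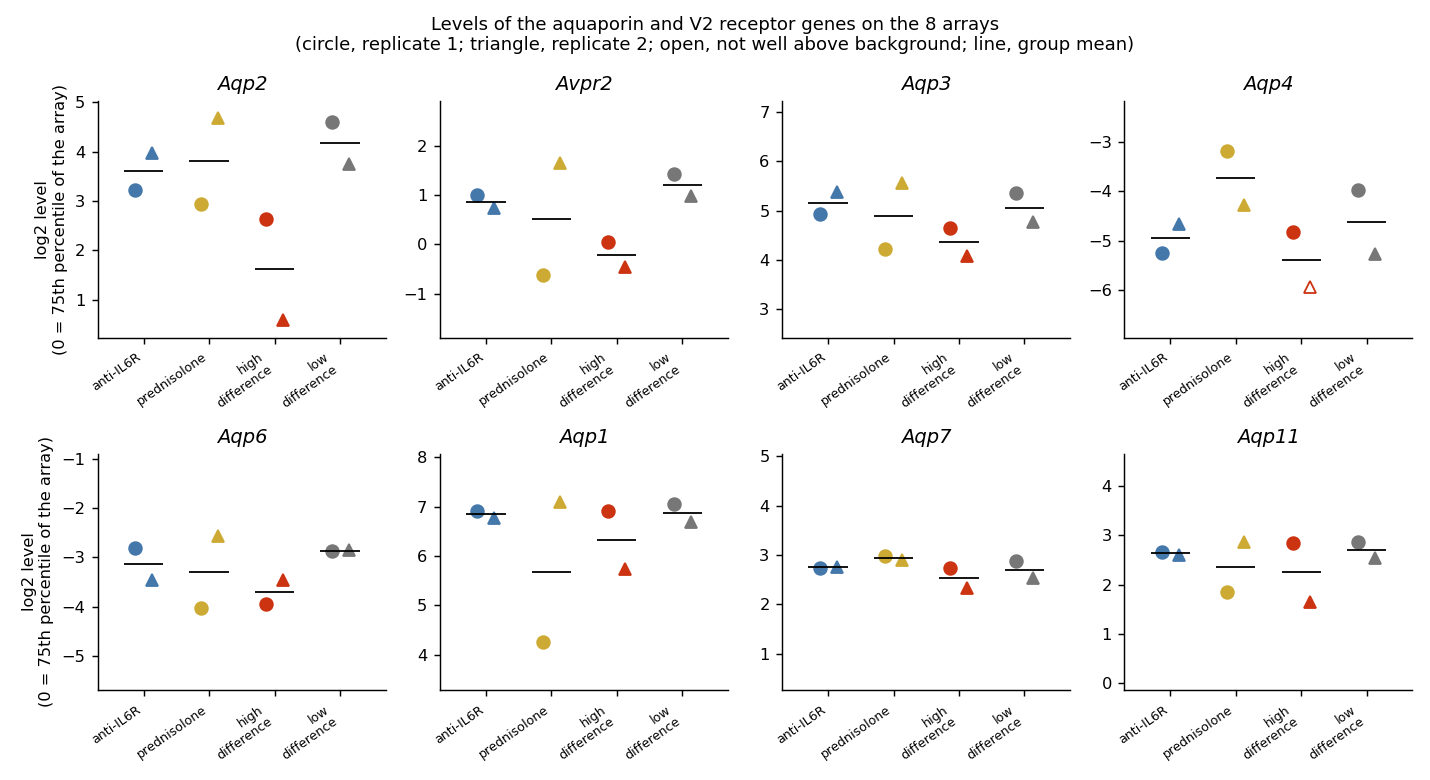
Log2 level (0 is the array's 75th percentile) of each of the 8 genes on each array, by group, with circles for replicate 1, triangles for replicate 2, an open symbol for a probe not well above background and a line for the group mean. Both high-difference arrays of Aqp2 (2.63 and 0.59) lie below the other 6, and the prednisolone pair is wide for Aqp1 (4.27 and 7.09) and Avpr2 (-0.62 and 1.65).

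Avpr2, the receptor through which vasopressin raises cyclic AMP in principal cells, had log2 levels of 1.0 and 0.73 in anti-IL6R grafts, -0.62 and 1.65 in prednisolone grafts, 0.05 and -0.46 in high-difference grafts, and 1.43 and 0.98 in low-difference grafts. The high-difference arrays lay below the anti-IL6R and the low-difference arrays, while prednisolone array 1 was the lowest and prednisolone array 2 the highest of all 8. High minus low difference was -1.41 ± 0.69 (SE; 2.65-fold; 95% interval -3.06 to 0.25; adjusted p = 0.39 in limma). Anti-IL6R grafts lay 1.07 ± 0.69 (SE) above high-difference grafts, with an adjusted p of 0.45. For prednisolone the difference was 0.72 ± 0.69 (SE, adjusted p = 0.68 in limma), and its sign depended on 1 array, with 1.85 without prednisolone array 1 and -0.42 without array 2.

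Aqp3, the basolateral water and glycerol channel of principal cells, had levels of 4.93 and 5.39 in anti-IL6R grafts, 4.23 and 5.57 in prednisolone grafts, 4.65 and 4.08 in high-difference grafts, and 5.36 and 4.77 in low-difference grafts. The high-difference arrays again lay below the anti-IL6R and low-difference arrays and overlapped with the prednisolone pair. The mean difference of high minus low was -0.69 ± 0.49 (SE, adjusted p = 0.50), and it was -0.98 and -0.41 without high-difference arrays 1 and 2, and -0.40 without low-difference array 1. Anti-IL6R minus high difference was 0.79 ± 0.49 (SE, adjusted p = 0.43), or 0.50 without high-difference array 2. Prednisolone minus high difference was 0.53 ± 0.49 (SE, adjusted p = 0.67), and it was 1.20 without prednisolone array 1, -0.14 without array 2 and 0.25 without high-difference array 2.

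Aqp4, the other basolateral water channel, was close to the detection limit, and its probe on high-difference array 2 was not well above background. Its levels were -5.25 and -4.65 in anti-IL6R grafts, -3.18 and -4.28 in prednisolone grafts, -4.82 and -5.94 in high-difference grafts, and -3.96 and -5.27 in low-difference grafts. Both prednisolone arrays lay above the anti-IL6R and high-difference arrays. Prednisolone minus high difference was 1.65 ± 0.62 (SE, adjusted p = 0.40 in limma), and 0.54 with normexp background correction, a model-based alternative to the scanner's subtraction. High minus low difference was -0.76 ± 0.62 (SE, adjusted p = 0.55), with overlapping arrays, and -0.07 with normexp. Anti-IL6R minus high difference was 0.43 ± 0.62 (SE, adjusted p = 0.73), which became -0.23 with normexp and -0.13 without high-difference array 2.

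Aqp6, a channel of intracellular vesicles in acid-secreting intercalated cells, had levels of -2.81 and -3.46 in anti-IL6R grafts, -4.03 and -2.56 in prednisolone grafts, -3.94 and -3.46 in high-difference grafts, and -2.87 and -2.85 in low-difference grafts. The low-difference pair differed by only 0.02 and lay above both high-difference arrays. In high minus low difference the value was -0.84 ± 0.50 (SE, adjusted p = 0.44), and -0.37 with normexp. Anti-IL6R minus high difference was 0.57 ± 0.50 (SE, adjusted p = 0.57), or 0.13 with normexp. The closest arrays of those groups agree to 2 decimals, at -3.46, and with normexp the arrays of those groups overlapped. Prednisolone minus high difference was 0.41 ± 0.50 (SE, adjusted p = 0.75), and it was 1.14 without prednisolone array 1 and -0.33 without array 2, since that pair spanned all other arrays.

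Aqp1, the water channel of the proximal tubule, thin descending limb and descending vasa recta, had levels of 6.91 and 6.78 in anti-IL6R grafts, 4.27 and 7.09 in prednisolone grafts, 6.92 and 5.74 in high-difference grafts, and 7.06 and 6.70 in low-difference grafts. A single array, prednisolone 1, was 7.08-fold below its partner and the lowest of the 8, and high-difference array 2 was the next lowest. The other 6 arrays lay within 6.70 to 7.09. The weight contrast, high minus low, was -0.55 ± 0.88 (SE, adjusted p = 0.77), and 0.04 without high-difference array 2. Anti-IL6R minus high difference was 0.51 ± 0.88 (SE, adjusted p = 0.78), and -0.08 without that array. Prednisolone minus high difference was -0.66 ± 0.88 (SE, adjusted p = 0.78), with 0.76 without prednisolone array 1 and -2.07 without array 2.

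Aqp11, in mice an aquaporin of the endoplasmic reticulum of proximal tubule cells, had levels of 2.66 and 2.60 in anti-IL6R grafts, 1.85 and 2.86 in prednisolone grafts, 2.84 and 1.65 in high-difference grafts, and 2.86 and 2.54 in low-difference grafts. High-difference array 2 and prednisolone array 1 were its lowest, as for Aqp1, in the opposite order. High minus low difference was -0.45 ± 0.47 (SE, adjusted p = 0.64), and 0.15 without high-difference array 2. Anti-IL6R and prednisolone minus high difference were 0.38 ± 0.47 and 0.11 ± 0.47 (SE, adjusted p = 0.69 and 0.94), and -0.21 and -0.49 without high-difference array 2.

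Aqp7, a glycerol and water channel of the proximal straight tubule, was the steadiest of the 8. Its levels were 2.74 and 2.77 in anti-IL6R grafts, 2.97 and 2.90 in prednisolone grafts, 2.74 and 2.34 in high-difference grafts, and 2.88 and 2.53 in low-difference grafts. All 8 arrays lay within a 1.55-fold range, and 24.4% of tested genes had a smaller one. Prednisolone arrays lay above those of each other group, by 0.39 ± 0.22 over the high-difference, 0.24 ± 0.22 over the low-difference and, with the sign as anti-IL6R minus prednisolone, -0.19 ± 0.22 for the remaining pair (SE, adjusted p = 0.51, 0.84 and 1.0 in limma). For high minus low the difference was -0.16 ± 0.22 (SE, adjusted p = 0.73), with a 95% interval of -0.69 to 0.37, and anti-IL6R minus high difference was 0.21 ± 0.22 (SE, adjusted p = 0.63). Without high-difference array 1 or 2, anti-IL6R minus high difference was 0.41 or 0.0093, and prednisolone minus high difference 0.59 or 0.19.

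Over the 8 genes, all 8 differences of high minus low were below 0, with a median of -0.73, against 46.6% below 0 and a median of 0.04 over all 24461 genes tested. No gene of the 8 passed the adjusted test, and 0% of all genes did. At an unadjusted p under 0.05, 1 of the 8, Aqp2, was lower and none was higher, against 7.29% of all genes lower and 6.73% higher. The arrays did not overlap, with high-difference lower, for 4 of the 8 (Aqp2, Avpr2, Aqp3 and Aqp6), and that was so for 25.1% of all genes. None of the 8 stood apart with high-difference higher, as 30.7% of all genes did. Without high-difference array 2, 5 of the 8 differences were below 0 with a median of -0.31, and without low-difference array 1, 7 were, with a median of -0.38. The 8 genes share tissue and in part cells, and are no replicates of a condition.

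Both treatments were set against the same 2 high-difference arrays, which also enter the weight comparison, so the 3 sets of differences are not independent and are given only side by side. For anti-IL6R minus high difference all 8 genes were above 0 with a median of 0.54, where 53.9% of all genes were below 0 and the median was -0.05. None passed the adjusted test (0% of all genes) and none had an unadjusted p under 0.05 with a higher level (7.93% of all genes) or a lower one (8.69%). The arrays did not overlap, with anti-IL6R higher, for 4 of the 8 (Aqp2, Avpr2, Aqp3 and Aqp6), as for 25.6% of all genes, and for none with it lower, as for 33.5%. With normexp those of Aqp6 did overlap. Without high-difference array 2, 5 of 8 were above 0, with a median of 0.26. For prednisolone minus high difference 7 of 8 were above 0, Aqp1 being the exception, with a median of 0.47, where 56.1% of all genes were below 0 and the median was -0.06. None of the 8 and 0% of all genes passed the adjusted test. Aqp2 and Aqp4 had a higher level at an unadjusted p under 0.05, as did 4.48% of all genes, and none a lower one (6.99%). Aqp2, Aqp4 and Aqp7 did not overlap with prednisolone higher, as for 14.9% of all genes, and none did with it lower, as for 23.6%. Without prednisolone array 1 all 8 were above 0, with a median of 1.12, and without array 2 only 3 were, with a median of -0.23.

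Between the 2 treatments, the 8 genes had anti-IL6R minus prednisolone differences from -1.22 for Aqp4 to 1.17 for Aqp1, with a median of 0.21. That direction rested on 1 array, since all 8 were below 0 without prednisolone array 1 (median -0.49), and 6 were above 0 without array 2 (median 0.84). None passed the adjusted test (0% of all genes). Aqp4 and Aqp7 did not overlap, with anti-IL6R lower, against 12.1% of all genes, and none with it higher, against 13.2%. Against low-difference grafts the anti-IL6R differences ran from -0.57 for Aqp2 to 0.09 for Aqp3, and the arrays overlapped for each of the 8, where 23.3% of all genes did not overlap with anti-IL6R lower and 15.8% with it higher. None of the 8 was among the 3 genes that passed there (0.0123% of all genes). Prednisolone minus low difference ran from -1.20 for Aqp1 to 0.89 for Aqp4, and only Aqp7 did not overlap, higher in prednisolone grafts, against 13.5% of all genes higher and 18.5% lower. Its median was -0.35, and 0.32 with all 8 above 0 without prednisolone array 1. None of the 8 passed there (0% of all genes). The intervals for Aqp2 were wide in both, from -2.57 to 1.43 for anti-IL6R and from -2.36 to 1.64 for prednisolone minus low difference, so equal levels were not shown.

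**Figure D2:**
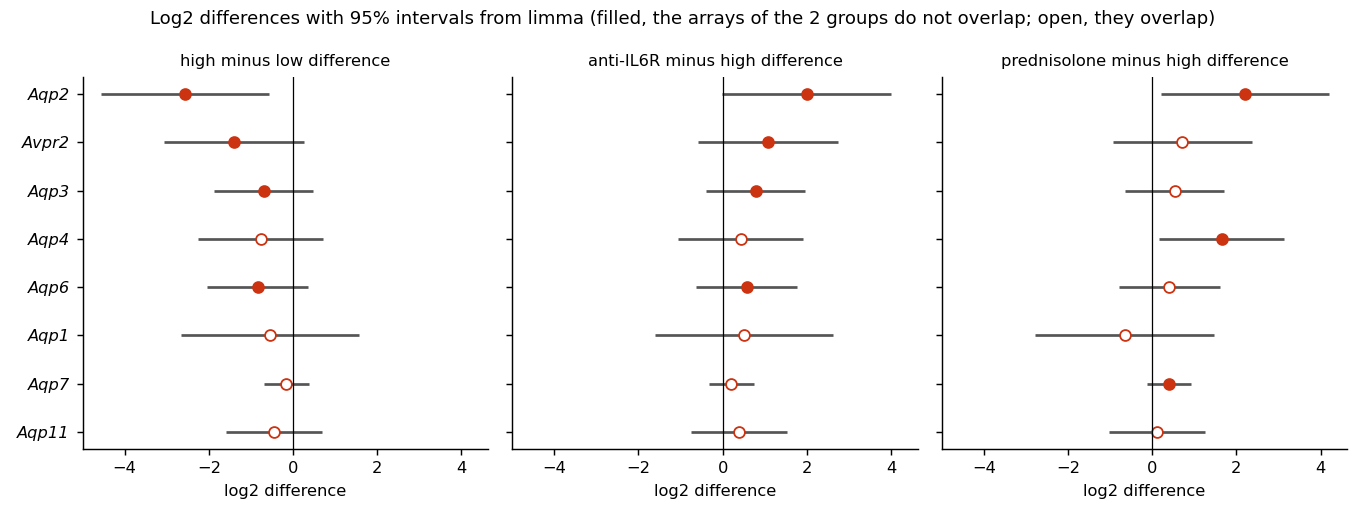
Log2 differences of the 8 genes (points) with 95% intervals from limma (lines) for high minus low difference, anti-IL6R minus high difference and prednisolone minus high difference, filled where the 2 arrays of one group lie wholly to one side of the other's. Aqp2 is farthest from 0 in each panel, at -2.56, 1.99 and 2.20, and the 3 panels share the high-difference arrays.

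Other principal cell genes gave the cell type's level beside Aqp2, Avpr2, Aqp3 and Aqp4. Of 7 principal cell markers, 6 were lower in the mean of high-difference than of low-difference grafts, with a median of -0.99, and none passed. Hsd11b2, which inactivates glucocorticoid at the mineralocorticoid receptor, differed by -1.55, the epithelial sodium channel subunit genes Scnn1b and Scnn1a by -0.99 and -0.85, and Kcne1 by -1.87. Fxyd4 was the exception, at 0.07, and also went against the others in anti-IL6R minus high difference, at -0.47. Kcnj10, a potassium channel gene, did not exceed background clearly in high-difference grafts or on prednisolone array 1. That put high-difference grafts at least 1.21-fold below low-difference grafts. The summed signal of the list, in multiples of the array's 75th percentile, was 168 and 97.2 in anti-IL6R, 88.1 and 274 in prednisolone, 108 and 54.6 in high-difference, and 226 and 155 in low-difference grafts. Hsd11b2 made up most of that sum on every array. By the median deviation of the 7 markers from their own means, the lowest array was prednisolone 1 (-0.68) and the highest low-difference 1 (0.88), while the arrays with the least and the most Aqp2, high-difference 2 and prednisolone 2, stood at -0.49 and 0.83. In anti-IL6R minus high difference 6 of the 7 were above 0 (median 0.32), and in prednisolone minus high difference all 7 (median 0.52). The part of the cell type in the Aqp2 values was not tested.

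Most markers of other nephron segments lay the same way in the mean. All 8 intercalated cell markers, which share their cell type with Aqp6, were below 0 in high minus low difference, with a median of -0.98. Their summed signal did not follow, at 241 and 411 in high-difference and 472 and 296 in low-difference grafts. Among them Rhcg, an ammonia channel gene, differed by -1.98 and the proton pump subunit gene Atp6v1b1 by -1.59, and none passed. All 8 tested markers of the thick ascending limb and distal tubule were below 0, with a median of -1.31, led by the growth factor gene Egf at -4.94. Of 8 proximal tubule markers, which share their segment with Aqp1, Aqp7 and Aqp11, 6 were below 0, with a median of -1.02. Slc34a1, the phosphate transporter gene, differed by -2.76. The 2 markers above 0 were the endocytic receptor gene Cubn, at 0.03, and Slc5a2, at 0.34. By the median deviation of the 8 markers from their own means, the high-difference arrays stood at 0.33 and -1.14. The low-difference arrays stood at 0.54 and 0.29, so high-difference array 2 alone lay below them. The proximal summed signal was 766 and 425 in high-difference grafts and 772 and 666 in low-difference grafts. In anti-IL6R minus high difference 7 of 8 proximal tubule markers (median 1.13), 6 of 8 intercalated cell markers (0.70) and 7 of 8 thick ascending limb and distal markers (0.97) were above 0. In prednisolone minus high difference 5 of 8 (median 0.49), 6 of 8 (0.44) and 8 of 8 (0.61) were. Their part in the Aqp1, Aqp6, Aqp7 and Aqp11 values was not tested.

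Markers of cells outside the nephron also differed between the group means. All 8 endothelial markers and 7 of 9 tested leukocyte markers were below 0 in high minus low difference, with medians of -0.81 and -1.19. In anti-IL6R minus high difference all 8 endothelial and all 9 leukocyte markers were above 0 (medians 1.24 and 1.90). So they were in prednisolone minus high difference (0.78 and 1.49). Among the leukocyte markers, Cd3e passed the filter on dim signal only through the anti-IL6R arrays, which favours a higher level there. Ptprc was not well above background on either high-difference array. The leukocyte summed signal was 52.0 and 35.9 in anti-IL6R, 56.6 and 14.5 in prednisolone, 9.75 and 6.63 in high-difference, and 27.1 and 37.4 in low-difference grafts. Lyz2 made up most of that sum on every array. In the prednisolone pair the array with more leukocyte signal was the one with less of Aqp1, Aqp2, Aqp3, Aqp6, Aqp11 and Avpr2. Aqp4 and Aqp7 were higher on it. The part of these cells in the values of the 8 genes was not tested. Of 5 tested red blood cell markers 5 were below 0 (median -0.71), as were 5 of 5 adipocyte markers (median -0.74). Slc4a1, with the largest difference of the red blood cell list (-1.37), is also among the intercalated cell markers. Skeletal muscle and urothelium had 2 tested markers each, with 1 below 0 in both lists. Both urothelial ones were higher in anti-IL6R than in high-difference grafts without overlap, as were 25.6% of all genes. Of the 2 urothelial markers, Krt5 passed the filter on dim signal only through the anti-IL6R arrays, which favours a higher level there. Among the untested markers, Myh4, Upk3b and Lep were not well above background on any array. Upk3a was on anti-IL6R array 2 alone (-3.13), Ckm on prednisolone array 1 alone (-5.42) and Plin1 on low-difference array 1 alone (-5.83).

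**Figure D3:**
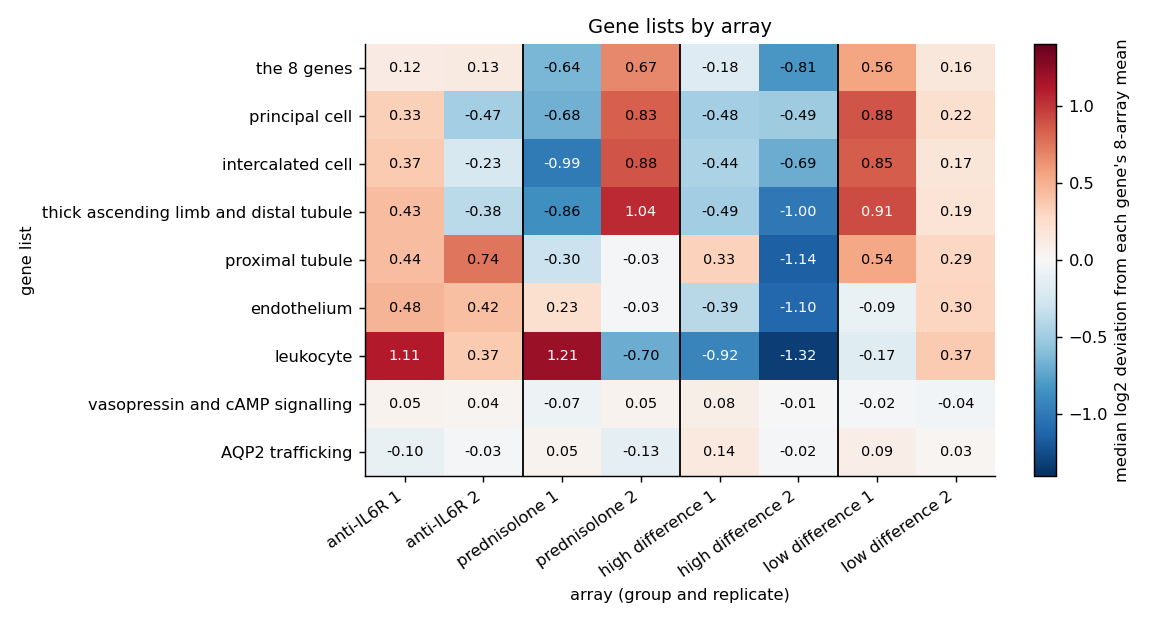
Median log2 deviation of the tested genes of each list from the gene's own mean over the 8 arrays, for each array in columns and each list in rows, in colour and as printed values. The 8 genes stand at 0.12 and 0.13 on the anti-IL6R arrays, -0.64 and 0.67 on the prednisolone arrays, -0.18 and -0.81 on the high-difference arrays and 0.56 and 0.16 on the low-difference arrays, while the vasopressin signalling list stays within -0.07 to 0.08.

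The listed genes of vasopressin and cyclic AMP signalling, the hormone gene Avp and Avpr1a included, gave no common direction. Of 17 tested genes of vasopressin and cyclic AMP signalling, 8 lay below 0 and 9 above 0 in high minus low difference, with a median of 0.15, and none passed in this or the other 5 comparisons. Adcy3, an adenylyl cyclase gene, had levels of -2.53 and -2.55 in anti-IL6R, -3.84 and -3.32 in prednisolone, -4.11 and -5.38 in high-difference, and -3.45 and -2.43 in low-difference grafts. Its high-difference arrays lay below all others, by 1.80 against low-difference and 2.20 against anti-IL6R grafts in the mean (adjusted p = 0.20 in limma for anti-IL6R), but high-difference array 2 was not well above background. Prkar2a, a regulatory subunit gene of protein kinase A, lay the other way, at -2.68 and -2.73 in high-difference grafts against -3.42 and -3.31 in low-difference grafts. Avpr1a, the V1a vasopressin receptor gene of vessels and intercalated cells, was 0.67 lower in high-difference than in low-difference grafts in the mean. Pde3b, which breaks down cyclic AMP, lay 1.20 higher in prednisolone than in high-difference grafts (adjusted p = 0.32 in limma). For anti-IL6R minus high difference 9 of the 17 were above 0 (median 0.05), and for prednisolone 10 (median 0.07).

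Genes of AQP2 vesicle traffic were also spread around 0, with 10 of 18 tested below 0 and a median of 0.00 in high minus low difference. In anti-IL6R minus high difference 12 of the 18 were below 0 (median -0.05), and in prednisolone minus high difference 14 (median -0.19). Stx3, which encodes an apical membrane fusion protein, had levels of -1.46 and -1.30 in anti-IL6R, -0.82 and -1.02 in prednisolone, -0.28 and -0.33 in high-difference, and -1.16 and -1.18 in low-difference grafts. The high-difference pair was highest, the anti-IL6R pair lay 1.08 below it (adjusted p = 0.16 in limma), and the low-difference pair 0.87 below it. Rab11a, of recycling endosomes, differed by 0.56 and Sipa1, a GTPase-activating protein gene linked to AQP2 traffic, by -0.64 in high minus low difference. None of the 18 passed in any of the 6 comparisons.

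Of 11 tested collecting duct transcription factors, 7 were below 0 in high minus low difference, with a median of -0.06. Foxa1 likewise was not detected well above background in high-difference grafts, at least 1.69-fold below low-difference grafts, nor on either prednisolone array (-7.02 and -6.05). Tfcp2l1, a factor of intercalated and principal cells, differed by -0.85 in high minus low difference. Of 8 urea and osmolyte transport genes, 4 were below 0, with a median of -0.13. Slc6a12, the betaine transporter gene, had levels of -2.16 and -2.94 in anti-IL6R, -4.43 and -3.69 in prednisolone, -4.40 and -5.74 in high-difference, and -3.39 and -3.33 in low-difference grafts, with high-difference array 2 not well above background. Slc14a2, the urea transporter gene of the inner medulla, was at -2.97 and -3.45 in high-difference and -2.84 and -2.38 in low-difference grafts. Slc38a2, an amino acid transporter gene, lay the other way, at 4.26 and 4.29 in high-difference against 3.67 and 3.74 in low-difference grafts, or 0.57 higher (adjusted p = 0.33 in limma). None of these genes passed.

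Among 6 other aquaporin genes looked for, 5 were on the array and 4 were tested. Aqp5, the neighbour of Aqp2 and Aqp6 that serves glands and lung, had levels of -3.83 and -3.96 in anti-IL6R, -4.41 and -2.37 in prednisolone, -4.34 and -5.46 in high-difference, and -3.22 and -3.31 in low-difference grafts. The difference of high minus low was -1.63, which did not pass limma's adjusted test, with high-difference array 2 not well above background. Aqp9, the glycerol channel of liver cells, was well above background on all 8 arrays and went the other way, at -4.26 and -3.67 in high-difference against -5.34 and -4.06 in low-difference grafts, or 0.73 higher with overlapping arrays (adjusted p = 0.48). Aqp8 and Mip were not well above background on either high-difference array, and Aqp12a had no unflagged spot on the low-difference arrays and was not tested.

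Across the 8 arrays, the levels of the genes were set against each other in 28 pairs, of which 24 had a correlation above 0. The points share arrays and groups, the spread within pairs included, and the exact permutation tests treat the arrays as exchangeable. Aqp2 and Aqp3 ran together at r = 0.873 (exact permutation p = 0.0015, adjusted over the 28 pairs 0.023) with rho = 0.929 (p = 0.0022, adjusted 0.021), and r was 0.802 without high-difference 2 and prednisolone 2. For Aqp2 and Avpr2 r was 0.822 (exact p = 0.0058, adjusted 0.028) and rho 0.833 (p = 0.015, adjusted 0.062), with r = 0.778 without those arrays. Aqp3 and Avpr2 had r = 0.905 (exact p = 0.0037, adjusted 0.026) and rho = 0.833 (p = 0.015, adjusted 0.062), and 0.823 without them. Aqp6 and Avpr2, of different cell types, had r = 0.880 (exact p = 0.006, adjusted 0.028) and rho = 0.905 (p = 0.0046, adjusted 0.032), and 0.823 without high-difference 1 and prednisolone 1.

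Aqp1 and Aqp11, both of the proximal tubule, had r = 0.852 (exact p = 0.018, adjusted 0.050) and rho = 0.976 (p = 0.0004, adjusted 0.0056), and r = 0.920 without high-difference 2 and prednisolone 1. Aqp4 and Aqp7, of different segments, had r = 0.910 (exact p = 0.0017, adjusted 0.023) and rho = 0.976 (p = 0.0004, adjusted 0.0056), with 0.844 without those 2 arrays. Aqp4 had r = 0.030 with Avpr2 and 0.223 with Aqp3, genes of the same cell type. Without the prednisolone pair these were 0.683 and 0.859. With Avpr2, r was 0.478 without high-difference 2 and prednisolone 1. With Aqp3 it was -0.308 without high-difference 2 and prednisolone 2. Aqp7, also of the proximal tubule, had r = -0.063 with Aqp1 and 0.419 with Aqp11, and 0.914 and 0.902 without the prednisolone pair. With Aqp1, r was 0.896 without high-difference 2 and prednisolone 1. With Aqp11 it was -0.547 without high-difference 2 and low-difference 2, so it depended on the arrays left out. Genes of different segments ran together as well. Aqp1 and Avpr2 had r = 0.806 (exact p = 0.0031, adjusted 0.026) and rho = 0.833 (p = 0.015, adjusted 0.062), with 0.491 without high-difference 2 and prednisolone 1. Aqp3 and Aqp11 had r = 0.829 (exact p = 0.0088, adjusted 0.035) and rho = 0.762 (p = 0.037, adjusted 0.11), with 0.693 without high-difference 2 and prednisolone 2. For Aqp1 and Aqp3 r was 0.745 (exact p = 0.015, adjusted 0.049) and rho 0.738 (p = 0.046, adjusted 0.13), with 0.531 without high-difference 2 and prednisolone 1. The pair of Aqp11 and Avpr2 rested on 2 arrays, since r = 0.813 (exact p = 0.016, adjusted 0.049; rho = 0.810, p = 0.022, adjusted 0.076) became 0.175 without high-difference 2 and prednisolone 1. In all, 9 pairs had an adjusted p under 0.05 by Pearson and 4 by Spearman correlation.

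**Figure D4:**
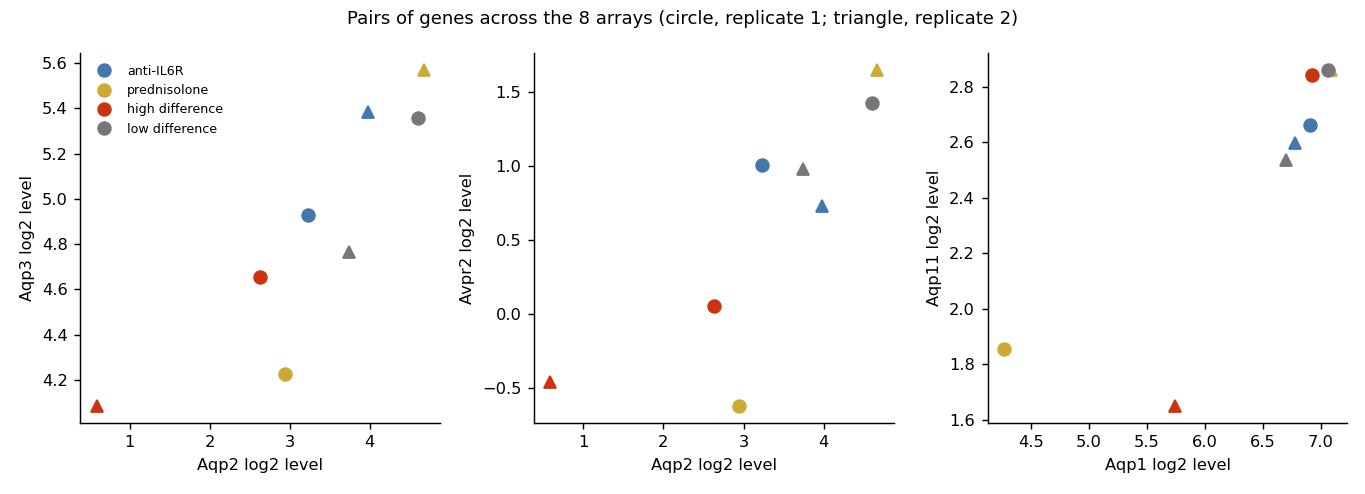
Log2 levels of 2 genes against each other on the 8 arrays, coloured by group, with circles for replicate 1 and triangles for replicate 2, for 3 of the 28 pairs, chosen after the correlations had been seen. Aqp2 runs with Aqp3 (r = 0.873) and with Avpr2 (r = 0.822), and for Aqp1 with Aqp11 (r = 0.852) 6 arrays lie close together and prednisolone 1 and high-difference 2 apart.

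Genes whose r with a member was over 0.9 were counted among all genes tested, a bound that only the pairs of Aqp4 with Aqp7 and Aqp3 with Avpr2 passed among the 8 themselves. Avpr2 had 966 genes (3.95% of those tested) with r over 0.9, Aqp2 316 (1.29%), Aqp1 341 (1.39%), Aqp3 307 (1.26%), Aqp11 278 (1.14%), Aqp6 166 (0.679%), Aqp7 28 (0.114%) and Aqp4 17 (0.0695%). The genes with a symbol most like Aqp2 over the 8 arrays were Hsd17b1 (r = 0.985), a steroid dehydrogenase gene, Kcnh2, Ppfibp2 and Rxfp2. For Avpr2 they were Fxyd6 (r = 0.996), Col9a2, Ndrg2 and Ninj2, and for Aqp3 Narf (r = 0.979), P2rx2, Paqr7 and Ptpdc1. Among the genes most like Aqp1 were Plxdc2, Ghrhr and Adamts3. Aqp6 was nearest to Car15 (r = 0.982), a carbonic anhydrase gene, Cabp7, Scnn1g and Egln3, and Aqp11 to St8sia1 (r = 0.983), Pdhb, A1cf and Osbpl1a. The genes nearest to Aqp4 were Med14 (r = 0.973), Txnrd2, Rrm2b and Vps35, and those nearest to Aqp7 were Slc24a5 (r = 0.950), Mlana, Mtss1 and Tdp2.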

How the data were processed

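RNA of 8 rat kidney allografts was labelled with Cy3 (1 µg of total RNA each, per the labels' protocols) and hybridised to 1-colour Agilent arrays which the scanner software Feature Extraction (version 9.5.1.1, per the file headers) quantified. As deposited, each scanner file gives a background-subtracted processed signal intensity, raw mean and background intensities and spot flags. The authors' deposited value table holds linear intensities: apart from 1338 zeros, every 1-spot probe equalled its processed signal multiplied by a single array-wide factor (tolerance 0.01 on the log2 scale). Its column medians were 108.3 to 108.4 without the zeros. The sources used here do not give how that factor was set.

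Here, control and outlier-flagged spots were left out, log2 processed signals were averaged per probe, and levels were set relative to the 75th percentile of their array. Of 41012 probes, 765 lacked an unflagged spot on some array and 11562 were dim, meaning not well above background on both arrays of any group. A probe counted as well above background when over 0.5 of its spots were, a rule set after the files had been read. The 28685 probes left stood for 24461 genes, each taken as its probe with the highest mean. Names came from the files (20970 probes) or were updated through RefSeq by accession (10735), symbol (5577) or synonym (3730).

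All 8 arrays entered 1 limma 3.58.1 fit in R 4.3.3 (lmFit, contrasts.fit, eBayes without trend; 4 residual and 2.38 prior degrees of freedom), for 6 comparisons. Benjamini-Hochberg adjustment ran over all genes, with a threshold of 0.05. An exact permutation test of 2 against 2 arrays cannot give a two-sided p below 0.33, so none was used for groups. All permutation tests of correlations were two-sided and exact. For a probe not well above background in 1 group, a lower bound replaces the fold, set from the lowest level well above background on each array. No outcome of a test of the fit on simulated data is given here, and no statement rests on one.

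The 8 genes and the lists were chosen with earlier results of these data known. All 8 are named, up to 4 genes of a list by smallest p, further markers of a list in its own order, and the 4 genes nearest to each member by r. Saturated spots were kept, and none of the 8 genes had one. Probe and protein sequences were not used here. Alternatives are listed under the dependence on the processing. Some results for single genes outside the 8 are not reported here.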

Additional observations from a re-analysis of the deposited data

How the results depend on the processing

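The 8 genes gave 402 differences under other processing, of which 398 kept their sign, and 384 with 1 array left out, of which 347 did, and none of either kind passed the adjusted test. For Aqp2 and Avpr2, high minus low kept its sign under all 17 alternatives, from -3.58 to -1.54 and from -1.66 to -1.15, with adjusted p from 0.14 to 0.86 and from 0.10 to 0.86 in limma. Normexp turned the sign of Aqp4 in anti-IL6R minus high (-0.23), Aqp6 in anti-IL6R minus prednisolone (-0.063) and Aqp1 in anti-IL6R minus low (0.024), and quantile normalization that of Aqp1 in anti-IL6R minus low (0.16). The cause was not tested. Under normexp the median of all genes was 0.12, -0.18 and -0.11 in high minus low, anti-IL6R minus high and prednisolone minus high, so its values are to be read against these. Detection limits Aqp4 most, since 1 of its 8 arrays was not well above background.

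Leaving out 1 array turned the sign of some differences. In high minus low the ranges were -1.14 to 0.041 for Aqp1, -0.36 to 0.041 for Aqp7 and -1.05 to 0.15 for Aqp11. In anti-IL6R minus high they were -0.076 to 1.1 for Aqp1, -0.13 to 0.99 for Aqp4 and -0.21 to 0.98 for Aqp11. In prednisolone minus high they were -2.07 to 0.76 for Aqp1, -0.14 to 1.20 for Aqp3, -0.33 to 1.14 for Aqp6, -0.49 to 0.71 for Aqp11 and -0.42 to 1.85 for Avpr2. In anti-IL6R minus prednisolone they were -0.24 to 2.58 for Aqp1, -1.07 to 0.66 for Aqp2, -0.41 to 0.93 for Aqp3, -0.57 to 0.90 for Aqp6, -0.23 to 0.78 for Aqp11 and -0.78 to 1.49 for Avpr2. In anti-IL6R minus low they were -0.22 to 0.15 for Aqp1, -0.20 to 0.39 for Aqp3, -0.99 to 0.32 for Aqp4, -0.60 to 0.053 for Aqp6, -0.12 to 0.22 for Aqp7 and -0.23 to 0.093 for Aqp11. In prednisolone minus low they were -2.62 to 0.21 for Aqp1, -1.23 to 0.50 for Aqp2, -0.84 to 0.51 for Aqp3, -1.17 to 0.30 for Aqp6, -0.84 to 0.16 for Aqp11 and -1.82 to 0.45 for Avpr2.

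Counts of all genes passing in limma were 0 in 5 comparisons and 3 in anti-IL6R minus low (LOC683788 and Scn4a among them, named after their values were seen). At an unadjusted p under 0.05 there were 3431 genes in high minus low, 4064 in anti-IL6R minus high, 2807 in prednisolone minus high, 850 in anti-IL6R minus prednisolone, 757 in anti-IL6R minus low and 1511 in prednisolone minus low. The 3 calls became 0 with normexp, without the filter on dim probes, with the probes well above background on all 8 arrays, with only the arrays compared and with the replicate block. Quantile normalization gave 3 in high minus low, 7 in anti-IL6R minus high, 4 in prednisolone minus high, 2 in anti-IL6R minus prednisolone and 4 in anti-IL6R minus low. With 1 array left out the counts ranged from 0 to 42 in high minus low, 0 to 192 in anti-IL6R minus high, 0 to 221 in prednisolone minus high, 0 to 132 in anti-IL6R minus prednisolone, 0 to 8 in anti-IL6R minus low and 0 to 146 in prednisolone minus low. The highest came without prednisolone array 1, tied with array 2 in anti-IL6R minus high and anti-IL6R minus low, except in high minus low (without high-difference array 1). Without both prednisolone arrays, an alternative chosen after seeing the data, 29, 192 and 8 genes passed in high minus low, anti-IL6R minus high and anti-IL6R minus low, with none of the 8 genes among them. Where an array was left out alone in its group, the lone array was assumed to vary like the other groups. The replicate block changed no call of the 8 genes, with adjusted p = 0.44 for Aqp2 in high minus low, and same-numbered arrays correlated from -0.35 to 0.37 in their deviations.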
